A study of Mus musculus with 12 samples.

Results

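The 34 genes described here mark the cells that line blood and lymphatic vessels. They form a list of gene symbols, grouped by role: 10 junction and surface markers of endothelium, 7 receptors, 6 secreted and matrix factors, 7 transcription factors and cofactors, 2 leukocyte adhesion molecules and 2 signalling proteins inside the cell. All 34 were found among the 30452 genes of the deposited table, none under a repeated symbol, and all 34 were among the 19189 genes tested. Every member had counts in each of the 12 libraries.

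The study asked which signals of the injured nerve go with loss of Nf1, a tumour suppressor that restrains Ras, from Schwann cells. It compared regenerating mouse sciatic nerve 14 days after injury, in 4 groups of 3 libraries each. Nf1 KO mice are recorded as P0-CreERT2:YFPfl/fl:Nf1fl/fl, and CTL mice P0-CreERT2:YFPfl/fl:Nf1+/+, so both carry the inducible Cre and the floxed YFP allele and differ in Nf1. Nf1 KO bridge, CTL bridge, Nf1 KO distal stump and CTL distal stump are the groups; the bridge is the tissue that re-forms across the injury, and the distal stump is the nerve beyond it. Per the labels, Tmx (tamoxifen, which activates CreERT2) removed Nf1 in myelinating Schwann cells, the cells in which the P0 promoter is active. The vessel cells are thus not the cells from which the labels say Nf1 was removed. The labels name Tmx for the Nf1 KO samples only and do not say whether CTL mice received it. Any part of Tmx or of active Cre in the genotype differences was not tested. For each library, 6 pieces of nerve, each 0.5 mm in size and taken from several mice, were pooled, and total RNA of all their cells was sequenced. Sex and age are not given in the labels.

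Vessels of a peripheral nerve run in its sheaths and in the endoneurium, where tight junctions form a blood-nerve barrier. After a cut, new vessels grow into the bridge, drawn by VEGF made there, and Schwann cells migrate along them. VEGF acts through the receptor encoded by Kdr, angiopoietins act through Tek, and factors of the ETS and SOX families, such as ERG and SOX17, keep endothelial genes active. Lymphatic vessels are set apart by PROX1 and the receptor encoded by Flt4.

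Nf1 itself stood at 42.4, 54.7 and 46.4 CPM (counts scaled to library size, with TMM factors) in the Nf1 KO bridge libraries, against 62.5, 67.4 and 60.1 CPM in CTL bridge. It stood at 42.5, 43.1 and 42.3 CPM in Nf1 KO distal stump, against 69.7, 57.0 and 67.3 CPM in CTL distal stump. Every Nf1 KO library lay below every CTL library of its region, and Nf1 fell to 75.6% of its CTL level in the bridge and 65.9% in the distal stump (edgeR adjusted p = 0.0218 and 0.0056). Library totals ran from 18821445 counts in CTL bridge 1 to 38981819 in Nf1 KO distal stump 1. CTL bridge 1 and 3 were rich in skeletal muscle RNA, with summed levels of 8 muscle genes of 10628 and 9391 CPM, against 16.2 to 3499 CPM elsewhere. Nf1 KO distal stump 1 held the 3499 CPM. The 4 Y-linked genes summed to 41.2 to 147 CPM in Nf1 KO bridge against 102 to 216 CPM in CTL bridge, and to 39.8 to 106 CPM in Nf1 KO distal stump against 116 to 197 CPM in CTL distal stump. The part of this difference in the results below was tested only by adding it to the fit. The labels call the 3 samples of a group independent without saying whether they share mice, so p-values measure the spread between these pools, which may be partly technical.

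Per kilobase of annotated exon, the members spanned a wide range of levels. Egfl7, which encodes a secreted factor of endothelium, had the highest level in each of the 4 groups, with a mean of 35.9 CPM per kilobase in Nf1 KO bridge, 45.5 in CTL bridge, 26.5 in Nf1 KO distal stump and 34.3 in CTL distal stump. Ecscr, Plvap, Esam, Pecam1 and Cdh5 followed in every group, in varying order. Among the VEGF receptors the order in Nf1 KO bridge was Kdr at 1.96 CPM per kilobase, Flt1 at 0.805 and Flt4 at 0.243. The lymphatic factor Prox1 was lowest in all 4 groups, at 0.440 to 0.866 CPM over the 12 libraries, and Flt4 was next to lowest. Exon length here is the union of all annotated isoforms, which lowers the value of a gene with long exons that these cells do not use.

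**Figure D1:**
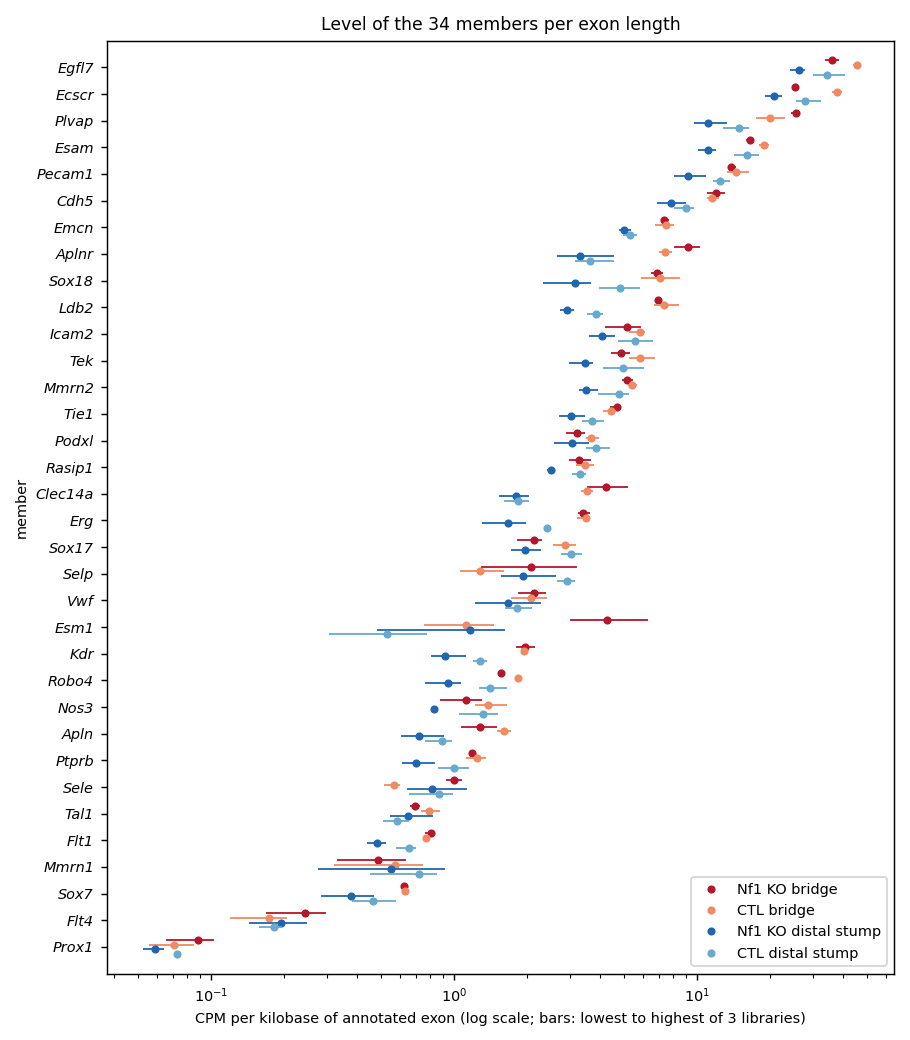
Mean level of each of the 34 members in CPM per kilobase of annotated exon (log axis), one point per group with a bar from the lowest to the highest of its 3 libraries. Egfl7 has the highest point and Prox1 the lowest in all 4 groups, and for 28 of 34 members the Nf1 KO distal stump point lies left of the other 3.

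Of the 34 members 12 fell in Nf1 KO distal stump, among them 4 of 10 surface markers, 3 of 7 receptors and 3 of 7 transcription factors, and 0 rose (edgeR quasi-likelihood test with Benjamini-Hochberg adjustment over all tested genes, called at adjusted p under 0.05). That is 35.3% of the members, beside 8.14% of all tested genes called in either direction, 4.45% called higher and 3.69% called lower. The members were chosen with the fall of endothelial markers in these libraries known, so this excess is not independent support. They were also measured in the same pools, so they are not 34 separate observations. DESeq2 called 17 members lower and 0 higher, beside 12.3% of all genes it gave an adjusted p. The 5 that it called and edgeR did not were Plvap, Tek, Egfl7, Sox18 and Nos3, with adjusted p from 0.00857 (Egfl7) to 0.0441 (Sox18). At an unadjusted edgeR p under 0.05 there were 21 members, or 61.8%, beside 22.9% of all tested genes, and Esm1 was the 1 of these with a positive change. The median log2 fold change of Nf1 KO over CTL was −0.40 over the members and −0.0014 over all tested genes, and 31 of 34 members had a negative value. The 3 with a positive value, Flt4, Esm1 and Tal1, were not called. In 18 members all Nf1 KO libraries lay below all CTL libraries, where 13.2% of all tested genes did. CPM are shares of each library. In bulk tissue, fewer endothelial cells, less RNA of these genes per cell and more RNA from other cells cannot be told apart.

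Among the junction and surface markers 4 of 10 fell in the distal stump. Esam encodes an adhesion molecule of endothelial tight junctions, and stood at 34.5, 29.0 and 31.7 CPM in Nf1 KO distal stump, against 40.8, 46.5 and 51.7 CPM in CTL distal stump. Its lowest CTL library lay above its highest Nf1 KO library, and it fell to 68.5% of the CTL level (log2 fold change −0.55, SE 0.089, adjusted p = 0.00524). Ecscr, a surface protein of endothelium, had 39.4, 33.6 and 36.3 CPM in Nf1 KO distal stump, against 44.8, 45.4 and 56.9 CPM in CTL distal stump. The groups did not overlap and CTL distal stump 3 was the highest library (log2 fold change −0.43, SE 0.094, adjusted p = 0.0196). Robo4, a guidance receptor known to stabilise vessels, had 5.69, 4.04 and 5.33 CPM in Nf1 KO distal stump, against 6.84, 6.70 and 8.79 CPM in CTL distal stump. It fell to 67.3% of the CTL level, with no overlap, with Nf1 KO library 2 the lowest of the 6 (log2 fold change −0.57, SE 0.14, adjusted p = 0.0336). Pecam1, the adhesion molecule used most widely to stain endothelium, had 67.7, 54.3 and 50.3 CPM in Nf1 KO distal stump, against 72.7, 74.5 and 85.7 CPM in CTL distal stump. Nf1 KO library 1 again came nearest to CTL, and the adjusted p of Pecam1 lay just under the threshold (log2 fold change −0.43, SE 0.12, adjusted p = 0.0456).

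The other 6 junction and surface markers were not called by edgeR in the distal stump. Cdh5, the cadherin of endothelial adherens junctions, had 37.8, 28.8 and 32.5 CPM in Nf1 KO distal stump, against 40.9, 39.5 and 33.8 CPM in CTL distal stump. Its groups overlapped, and the 95% interval of its log2 fold change ran from −0.45 to 0.038. Plvap builds the diaphragms of fenestrated and leaky capillaries. It had 26.4, 20.6 and 19.3 CPM in Nf1 KO distal stump, against 25.6, 32.7 and 30.8 CPM in CTL distal stump, with 1 CTL library below the highest Nf1 KO library (log2 fold change −0.43, SE 0.14, adjusted p = 0.086). Icam2, Emcn, Podxl and Clec14a had log2 fold changes of −0.45, −0.093, −0.33 and −0.037.

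Of 7 receptors 3 fell, both blood-vessel VEGF receptors among them. Kdr, the main signalling receptor for VEGF, had 10.1, 7.58 and 7.31 CPM in Nf1 KO distal stump, against 10.8, 11.6 and 12.3 CPM in CTL distal stump. The groups did not overlap, and Nf1 KO library 1 was the highest of its group (log2 fold change −0.48, SE 0.12, adjusted p = 0.0367). Flt1, which binds VEGF and limits how much reaches Kdr, had 6.46, 5.93 and 7.09 CPM in Nf1 KO distal stump, against 7.83, 9.29 and 9.41 CPM in CTL distal stump, again without overlap (log2 fold change −0.45, SE 0.10, adjusted p = 0.0214). Ptprb, a phosphatase that restrains Tek and the cadherin of endothelial junctions, had 11.2, 8.60 and 8.17 CPM in Nf1 KO distal stump, against 13.3, 11.5 and 15.4 CPM in CTL distal stump. Its highest Nf1 KO library came within a small step of its lowest CTL library (log2 fold change −0.52, SE 0.14, adjusted p = 0.0431). Tek, the angiopoietin receptor, had 17.6, 17.3 and 14.1 CPM in Nf1 KO distal stump, against 19.4, 22.6 and 28.5 CPM in CTL distal stump and did not overlap between groups, but its adjusted p was 0.0584 (log2 fold change −0.53). The apelin receptor Aplnr had 16.96, 9.81 and 10.0 CPM in Nf1 KO distal stump, against 11.7, 11.8 and 16.9 CPM in CTL distal stump, with the groups overlapping and an interval of −0.61 to 0.33 on the log2 scale. Tie1 and Flt4 had log2 fold changes of −0.29 and 0.086 and were not called.

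Transcription factors of endothelium fell in 3 of 7 cases. Sox17, a SOX factor of arterial endothelium, had 8.92, 8.24 and 10.9 CPM in Nf1 KO distal stump, against 13.2, 16.1 and 14.2 CPM in CTL distal stump. With a fall to 64.5% of the CTL level it was the largest change among the 12 called members (log2 fold change −0.63, SE 0.14, adjusted p = 0.0213). Erg, the ETS factor that keeps endothelial identity, had 6.86, 4.53 and 5.98 CPM in Nf1 KO distal stump, against 8.41, 8.33 and 8.36 CPM in CTL distal stump. The 3 CTL libraries were nearly equal and all Nf1 KO libraries lay under them (log2 fold change −0.53, SE 0.13, adjusted p = 0.0344). Ldb2, a LIM-domain binding cofactor, had 9.76, 10.5 and 9.11 CPM in Nf1 KO distal stump, against 11.8, 13.7 and 12.99 CPM in CTL distal stump, with no overlap and a narrow spread in both groups (log2 fold change −0.39, SE 0.10, adjusted p = 0.0371). Sox18, a relative of Sox17, had 5.62, 3.76 and 5.94 CPM in Nf1 KO distal stump, against 6.38, 7.60 and 9.44 CPM in CTL distal stump and was not called (adjusted p = 0.0944). Tal1, a factor shared by blood and endothelial precursors, had 3.60, 2.39 and 2.52 CPM in Nf1 KO distal stump, against 2.87, 2.59 and 2.24 CPM in CTL distal stump, with overlapping groups. The remaining factors, Sox7 and Prox1, had log2 fold changes of −0.30 and −0.30 with standard errors of 0.22 and 0.30.

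Among secreted and matrix factors 1 of 6 fell, Mmrn2, a matrix protein that coats endothelium. It had 15.6, 13.1 and 13.1 CPM in Nf1 KO distal stump, against 15.5, 20.4 and 20.9 CPM in CTL distal stump. CTL library 1 lay just below Nf1 KO library 1, so the groups overlapped although the test called the gene (log2 fold change −0.44, SE 0.11, adjusted p = 0.0366). Egfl7 had 97.9, 86.4 and 99.9 CPM in Nf1 KO distal stump, against 108, 114 and 146 CPM in CTL distal stump, with no overlap and an adjusted p of 0.0635 (log2 fold change −0.37). Vwf, which tethers platelets to damaged vessels, had 36.8, 19.7 and 24.0 CPM in Nf1 KO distal stump, against 28.0, 26.2 and 33.6 CPM in CTL distal stump and overlapped between groups. Mmrn1 and Apln were not called, at −0.38 and −0.32 on the log2 scale. Esm1 had 2.93, 3.41 and 1.01 CPM in Nf1 KO distal stump, against 0.645, 1.06 and 1.62 CPM in CTL distal stump and a positive, uncalled log2 fold change of 1.14 (SE 0.49).

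Rasip1, a Ras-interacting protein needed for vessel lumens, was the 1 of 2 signalling genes that fell. It had 7.97, 8.38 and 7.78 CPM in Nf1 KO distal stump, against 9.77, 10.9 and 11.2 CPM in CTL distal stump, with every Nf1 KO library below every CTL library (log2 fold change −0.40, SE 0.10, adjusted p = 0.0373). Nos3, the nitric oxide synthase of endothelium, had 3.499, 3.43 and 3.35 CPM in Nf1 KO distal stump, against 4.35, 5.64 and 6.30 CPM in CTL distal stump. Its libraries did not overlap either, yet its adjusted p was 0.0614 (log2 fold change −0.66). Neither selectin was called: Selp, which catches leukocytes on activated endothelium, had 11.7, 6.92 and 6.88 CPM in Nf1 KO distal stump, against 11.7, 13.9 and 12.9 CPM in CTL distal stump, with Nf1 KO library 1 level with the lowest CTL library and the other Nf1 KO libraries well under it (adjusted p = 0.303). Sele, its cytokine-induced relative, had 3.30, 1.95 and 1.87 CPM in Nf1 KO distal stump, against 2.80, 2.89 and 1.90 CPM in CTL distal stump. Exons of Rasip1, Sox17, Nos3, Selp, Ecscr, Egfl7 and Prox1 overlap those of other annotated genes, and how reads in the shared stretches were assigned is not known.

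**Figure D2:**
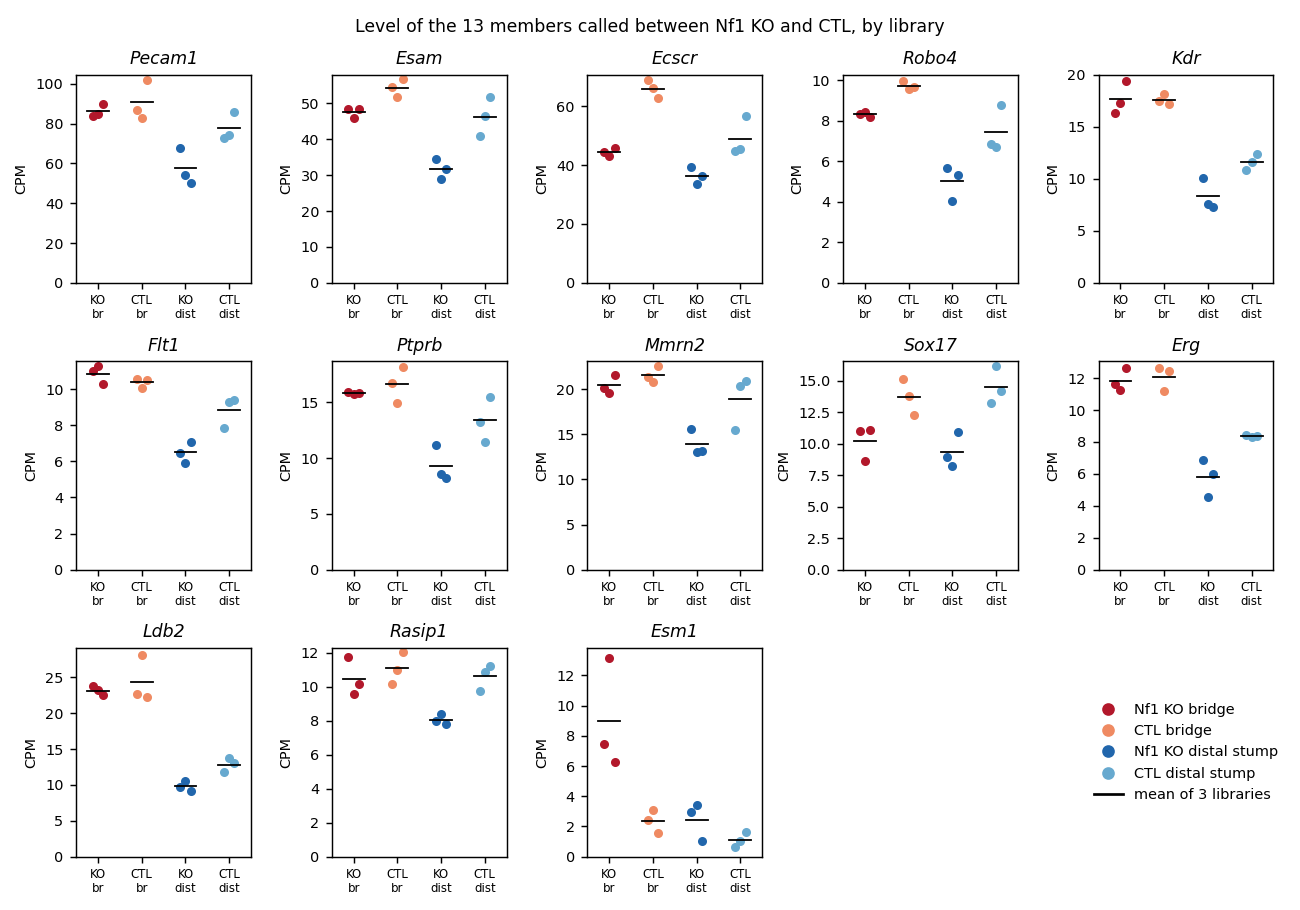
Level in CPM (linear axis from 0) of the 13 members called between Nf1 KO and CTL in either region, 1 point per library with a line at the mean of 3, in the order Nf1 KO bridge, CTL bridge, Nf1 KO distal stump, CTL distal stump. In 11 of the 12 members called in the distal stump the Nf1 KO distal stump points lie below all CTL distal stump points, Mmrn2 being the exception, and Esm1 stands out in Nf1 KO bridge.

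The count of 12 depended on single libraries. Without Nf1 KO distal stump 2 the test called 1 member, without CTL distal stump 3 it called 2, without Nf1 KO distal stump 3 it called 3, and without CTL distal stump 2 it called 4. Without Nf1 KO bridge 1, 2 or 3, or CTL bridge 1, which enter only through the shared fit, it called 7, 6, 6 and 7. Fitted on the 6 distal stump libraries alone it called 1, and with the summed Y-linked level as a covariate it called 2. Without both CTL bridge 1 and 3, which leaves 1 CTL bridge library, the median log2 fold change of the members was −0.40. Over these fits and all others run, the median log2 fold change of the members lay between −0.49 and −0.33. The value of −0.49 was that without Nf1 KO distal stump 1, which held more muscle RNA than the other distal stump libraries. Esam alone kept its call in all 20 alternatives. The share of all genes called also fell from the 8.14% of the full fit. It was 4.48% without Nf1 KO distal stump 2, 4.59% without CTL distal stump 3 and 4.63% without Nf1 KO distal stump 3. It was 5.53% without CTL distal stump 2, 4.86% on the distal stump alone and 5.65% with the covariate. Without Nf1 KO bridge 1, 2 or 3 or CTL bridge 1 it was 7.05%, 6.89%, 6.91% and 6.92%. The count of members was 12 without CTL bridge 3 (7.96% of all genes) and 11 without Nf1 KO distal stump 1 (6.62%). It was 10 without CTL distal stump 1 (4.87%) and 8 without CTL bridge 2 (7.35%).

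Promoters are shown for the distal-called members with an entry in the RefSeq promoter table (GRCm38.p6, 250 bases before to 50 after the start), together with that of Esm1, which rose in the bridge. The table held 18 of the 34 members; Pecam1, Cdh5, Esam, Icam2, Plvap, Podxl, Ecscr, Ptprb, Aplnr, Vwf, Mmrn2, Sox7, Sox17, Sox18, Ldb2 and Nos3 were not matched. Each is written 5′ to 3′ on the strand of its gene, and capitals mark AGGAAG or its reverse complement CTTCCT, a form of the ETS site to which ERG binds. The windows are Robo4 at chr9:37401722-37402021 (plus strand), Kdr at chr5:75978406-75978705 (minus), Flt1 at chr5:147725962-147726261 (minus), Erg at chr16:95459299-95459598 (minus, the third of its 3 listed starts), Rasip1 at chr7:45627287-45627586 (plus) and Esm1 at chr13:113209409-113209708 (plus).
Robo4: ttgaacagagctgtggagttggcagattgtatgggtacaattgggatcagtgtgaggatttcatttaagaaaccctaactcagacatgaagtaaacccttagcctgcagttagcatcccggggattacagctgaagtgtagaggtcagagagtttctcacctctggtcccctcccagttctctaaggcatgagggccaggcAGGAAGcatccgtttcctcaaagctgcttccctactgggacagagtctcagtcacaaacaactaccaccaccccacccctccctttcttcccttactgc
Kdr: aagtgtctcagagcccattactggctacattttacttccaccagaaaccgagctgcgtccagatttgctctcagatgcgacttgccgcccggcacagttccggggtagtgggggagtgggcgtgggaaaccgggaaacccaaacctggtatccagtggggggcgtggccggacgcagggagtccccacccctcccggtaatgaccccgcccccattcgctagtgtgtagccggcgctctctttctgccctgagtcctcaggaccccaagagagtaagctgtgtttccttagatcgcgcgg
Flt1: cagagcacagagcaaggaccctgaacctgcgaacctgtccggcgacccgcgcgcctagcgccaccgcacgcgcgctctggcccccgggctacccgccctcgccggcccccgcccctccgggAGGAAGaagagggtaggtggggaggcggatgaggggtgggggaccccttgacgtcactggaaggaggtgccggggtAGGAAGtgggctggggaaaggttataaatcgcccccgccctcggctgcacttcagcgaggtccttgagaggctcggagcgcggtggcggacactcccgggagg
Erg: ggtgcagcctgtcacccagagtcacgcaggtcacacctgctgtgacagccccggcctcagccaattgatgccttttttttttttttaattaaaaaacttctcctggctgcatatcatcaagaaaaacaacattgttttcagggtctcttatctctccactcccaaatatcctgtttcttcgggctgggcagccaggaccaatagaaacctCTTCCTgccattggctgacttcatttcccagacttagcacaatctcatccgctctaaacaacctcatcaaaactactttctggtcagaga
Rasip1: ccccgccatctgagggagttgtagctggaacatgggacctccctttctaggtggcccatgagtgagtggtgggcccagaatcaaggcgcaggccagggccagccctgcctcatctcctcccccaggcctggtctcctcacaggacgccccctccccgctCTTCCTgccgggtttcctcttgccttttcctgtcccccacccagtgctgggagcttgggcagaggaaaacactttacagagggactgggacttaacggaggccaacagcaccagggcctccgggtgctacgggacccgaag
Esm1: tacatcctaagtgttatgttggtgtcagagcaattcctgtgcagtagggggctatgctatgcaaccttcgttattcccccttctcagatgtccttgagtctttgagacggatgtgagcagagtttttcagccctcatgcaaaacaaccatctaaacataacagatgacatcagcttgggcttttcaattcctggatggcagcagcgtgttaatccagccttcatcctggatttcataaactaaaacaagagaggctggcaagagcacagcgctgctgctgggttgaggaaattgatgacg
The 6 letters occurred 2 times in the Flt1 window and once each in those of Robo4, Erg and Rasip1, and not in those of Kdr and Esm1. The other 2 Erg windows lacked them. On either strand they were in 11 of the 24 listed promoters of the members, which belong to 10 of the 18 matched members, and in 35.4% of all 32851 promoters of that length. The shorter core GGAA was in 24 of the 24 and in 96.0% of all promoters. These were 2 of 16 short motifs counted, AGGAAG being chosen for display after the counts were seen, and a match is a description of the letters only.

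In the bridge 1 member rose and 1 fell. This is 5.88% of the members, beside 14.6% of all tested genes called (7.81% higher and 6.76% lower), and the median log2 fold change of the members was −0.052 beside −0.0039 over all tested genes. The member that fell was Ecscr, at 44.6, 43.2 and 45.9 CPM in Nf1 KO bridge, against 69.0, 66.2 and 62.9 CPM in CTL bridge. All Nf1 KO libraries lay well under all CTL libraries. Its mean fitted level reached 67.5% of that in CTL, with log2 fold change −0.57, SE 0.093, adjusted p = 0.00359. The member that rose was Esm1, which encodes endocan, a proteoglycan secreted by the tip cells of sprouting vessels. It had 7.47, 13.2 and 6.30 CPM in Nf1 KO bridge, against 2.41, 3.08 and 1.59 CPM in CTL bridge. The lowest Nf1 KO library exceeded the highest CTL library, and Nf1 KO library 2 stood apart above the rest (3.82-fold; log2 fold change 1.93, SE 0.49, adjusted p = 0.0241).

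The call of Esm1 depended on single libraries. Without CTL bridge 1 and 3, the muscle-rich libraries, the fit sets 3 Nf1 KO libraries against 1 CTL library, which is assumed to vary like the other groups, and the share of all genes called fell to 3.48%. Neither member was called in it: Ecscr then had a log2 fold change of −0.57 with an adjusted p of 0.061, and Esm1 had 1.55 with an adjusted p of 0.313. Esm1 also lost its call without Nf1 KO bridge 2 (1.55, adjusted p = 0.0875), without CTL bridge 1 (1.95, 0.0751), without CTL bridge 3 (1.71, 0.0792) and with the Y-linked covariate (1.47, 0.0695). Ecscr kept its call in the other 19 alternatives, and over all alternatives of Esm1 the adjusted p ran from 0.00101 to 0.313.

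Sele and Egfl7 came nearest to a call in the bridge among the rest. Sele had 3.15, 2.71 and 2.87 CPM in Nf1 KO bridge, against 1.69, 1.51 and 1.75 CPM in CTL bridge, all Nf1 KO libraries being above all CTL libraries (log2 fold change 0.82, SE 0.25, adjusted p = 0.0503). It was called under DESeq2, under the stricter filter, with bridge libraries alone and with the Y-linked covariate, and also without Nf1 KO distal stump 1 or 3 or CTL distal stump 3. Selp had 14.1, 7.72 and 5.70 CPM in Nf1 KO bridge, against 4.66, 5.14 and 7.09 CPM in CTL bridge. Its Nf1 KO library 1, which also held the most neutrophil RNA, with 592 CPM of S100a8 against 10.0 to 22.9 CPM in the other bridge libraries, was far above the others. Without that library the log2 fold change of Selp was 0.25 in place of 0.70; the part of neutrophils in its level was not tested. Egfl7 had 138, 120.3 and 127 CPM in Nf1 KO bridge, against 157, 166 and 166 CPM in CTL bridge and did not overlap between groups (log2 fold change −0.34, SE 0.11, adjusted p = 0.0597); it was called lower under DESeq2, with bridge libraries alone, and without CTL distal stump 1 or 3.

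Of the 12 members that fell in the distal stump, edgeR called 1 in the bridge, Ecscr, and DESeq2 called Ecscr and Sox17. Kdr had 16.3, 17.3 and 19.4 CPM in Nf1 KO bridge, against 17.5, 18.2 and 17.1 CPM in CTL bridge, and its interval there was −0.25 to 0.27 on the log2 scale. Flt1 had 11.0, 11.3 and 10.3 CPM in Nf1 KO bridge, against 10.5, 10.1 and 10.5 CPM in CTL bridge, and Erg had 11.6, 11.3 and 12.6 CPM in Nf1 KO bridge, against 12.6, 11.2 and 12.4 CPM in CTL bridge. All 3 overlapped between genotypes. Pecam1 had 84.1, 85.0 and 89.9 CPM in Nf1 KO bridge, against 87.1, 82.8 and 102 CPM in CTL bridge and Ptprb had 15.9, 15.7 and 15.8 CPM in Nf1 KO bridge, against 16.7, 14.9 and 18.2 CPM in CTL bridge, again overlapping. Ldb2, Mmrn2 and Rasip1 overlapped too, with log2 fold changes of −0.074, −0.079 and −0.083. Esam, Robo4 and Sox17 lay below CTL in every Nf1 KO bridge library without a call by edgeR. Esam had 48.4, 45.9 and 48.5 CPM in Nf1 KO bridge, against 54.5, 51.7 and 56.7 CPM in CTL bridge, a log2 fold change of −0.19. Sox17 had 11.0, 8.64 and 11.0 CPM in Nf1 KO bridge, against 15.2, 13.8 and 12.2 CPM in CTL bridge, a change of −0.42 with an adjusted p of 0.0703 by edgeR and 0.0494 by DESeq2, which called it. Robo4 had 8.35, 8.45 and 8.18 CPM in Nf1 KO bridge, against 9.98, 9.56 and 9.64 CPM in CTL bridge, a change of −0.22.

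Other abundant members of each role were not called in the bridge. Plvap had 52.4, 52.1 and 48.4 CPM in Nf1 KO bridge, against 38.9, 35.0 and 45.8 CPM in CTL bridge, every Nf1 KO library being above every CTL library (log2 fold change 0.35, SE 0.13, adjusted p = 0.109). Aplnr had 38.2, 29.8 and 34.2 CPM in Nf1 KO bridge, against 27.03, 25.8 and 29.2 CPM in CTL bridge, also without overlap (log2 fold change 0.31, SE 0.21, adjusted p = 0.355). Cdh5 had 54.9, 49.9 and 46.3 CPM in Nf1 KO bridge, against 47.3, 46.5 and 51.8 CPM in CTL bridge and Tek had 23.2, 20.95 and 25.04 CPM in Nf1 KO bridge, against 24.9, 25.9 and 31.7 CPM in CTL bridge, both with overlap. Vwf overlapped at 38.7, 34.7 and 29.5 CPM in Nf1 KO bridge, against 38.9, 27.5 and 34.3 CPM in CTL bridge. Sox18 had 11.8, 11.2 and 10.5 CPM in Nf1 KO bridge, against 13.8, 9.56 and 10.9 CPM in CTL bridge, with CTL library 1 the highest. Tal1 had 2.89, 2.99 and 3.19 CPM in Nf1 KO bridge, against 3.38, 3.83 and 3.20 CPM in CTL bridge, and Nos3 had 3.63, 4.98 and 5.37 CPM in Nf1 KO bridge, against 5.07, 5.18 and 6.85 CPM in CTL bridge. In all, 4 members had every Nf1 KO bridge library above CTL (Plvap, Aplnr, Esm1 and Sele) and 8 had every one below, where 17.8% and 16.7% of all tested genes did. The members not given by library, Icam2, Emcn, Podxl, Clec14a, Flt4, Tie1, Apln, Mmrn1, Sox7 and Prox1, had log2 fold changes from −0.33 (Apln) to 0.50 (Flt4), none called.

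**Figure D3:**
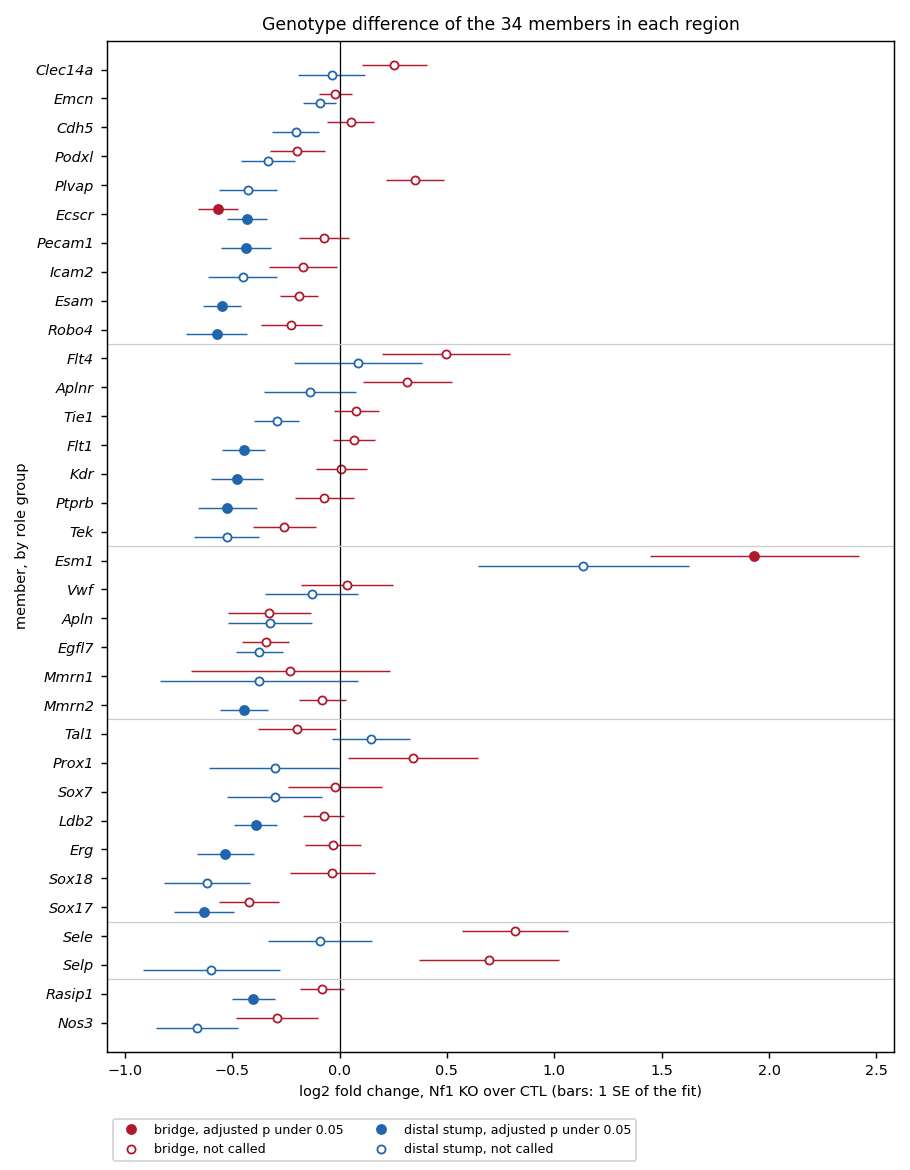
Log2 fold change of Nf1 KO over CTL for each member, in the bridge (red) and the distal stump (blue), with bars of 1 standard error of the fit and filled points where the adjusted p was under 0.05; members are grouped by role. Most blue points lie left of 0 and left of their red partner, and Esm1, Sele and Selp lie far right in the bridge.

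Whether the genotype difference itself differed between regions was tested as an interaction. No member was called, and none of the 19189 genes was (0% of all tested). At an unadjusted p under 0.05 there were 12 members, all with a value higher in the bridge, which is 35.3% of the members beside 2534 genes or 13.2% of all. The interaction was positive in 31 of 34 members, with a median of 0.35 on the log2 scale beside 0.0021 over all genes. It is the genotype difference in the bridge minus that in the distal stump, whose member medians were −0.052 and −0.40. These counts come from the same libraries as the genotype comparisons above, so they are not independent of the fall in the distal stump. Selp had the highest value, 1.29 (SE 0.45, adjusted p = 0.272), and Plvap had 0.78 (SE 0.19, adjusted p = 0.155). DESeq2 called 428 genes, or 3.17% of the 13493 it gave an adjusted p. Of the 29 members it gave an adjusted p, it called 1, Plvap, with 0.78 and an adjusted p of 0.01. A member called in the distal stump and not in the bridge is not shown by edgeR to respond differently in them.

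The regions were also compared within each genotype, first in Nf1 KO nerves. Of the 34 members 21 rose in the bridge and 0 fell, or 61.8%, beside 15.2% of all tested genes called (7.78% higher and 7.41% lower). DESeq2 called 22 higher and 0 lower, beside 19.5% of all genes it gave an adjusted p. The median log2 fold change of bridge over distal stump was 0.59 over the members and 0.0042 over all tested genes. In 25 members every bridge library lay above every distal stump library, where 17.2% of all tested genes did. These counts share the Nf1 KO distal stump libraries with the genotype comparison above, so the 2 sets of calls are not independent of each other.

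At least 2-fold higher were 8 of the called members, among them receptors, transcription factors and surface markers. Ldb2 had 23.7, 23.2 and 22.5 CPM in Nf1 KO bridge, against 9.76, 10.5 and 9.11 CPM in Nf1 KO distal stump (log2 fold change 1.24, SE 0.10, adjusted p = 0.000356). Aplnr, whose ligand apelin is made by sprouting tips, had 38.2, 29.8 and 34.2 CPM in Nf1 KO bridge, against 16.96, 9.81 and 10.0 CPM in Nf1 KO distal stump, a 2.78-fold difference with no overlap (log2 fold change 1.47, SE 0.21, adjusted p = 0.00179). Plvap had 52.4, 52.1 and 48.4 CPM in Nf1 KO bridge, against 26.4, 20.6 and 19.3 CPM in Nf1 KO distal stump, so its lowest bridge library was well above its highest distal library (log2 fold change 1.21, SE 0.14, adjusted p = 0.000692). Clec14a, a lectin of endothelium under low flow, had 23.8, 16.2 and 17.9 CPM in Nf1 KO bridge, against 9.32, 8.35 and 6.98 CPM in Nf1 KO distal stump (log2 fold change 1.23, SE 0.16, adjusted p = 0.000984). Kdr was 2.12-fold, Erg 2.05-fold and Sox18 2.18-fold higher in the bridge, each with every bridge library above every distal one. Esm1 had 7.47, 13.2 and 6.30 CPM in Nf1 KO bridge, against 2.93, 3.41 and 1.01 CPM in Nf1 KO distal stump, a 3.66-fold difference (log2 fold change 1.87, SE 0.48, adjusted p = 0.026). The other called members, Pecam1, Cdh5, Esam, Emcn, Robo4, Flt1, Tek, Tie1, Ptprb, Apln, Egfl7, Mmrn2 and Rasip1, were 1.30- to 1.78-fold higher. Of the 21 calls, 16 held in all 20 alternatives; those of Tek, Rasip1, Apln, Egfl7 and Esm1 were lost in some. Leaving out any single library gave 17 to 23 calls, with 8.08% to 14.7% of all genes called.

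In CTL nerves the same contrast called 9 members higher in the bridge and 1 lower, 29.4% of the members beside 9.85% of all tested genes (5.15% higher and 4.71% lower). DESeq2 called 11 higher and 1 lower, beside 14.3% of all genes it gave an adjusted p. The median log2 fold change was 0.28, beside −0.00086 over all genes. In 17 members every CTL bridge library lay above every CTL distal stump library, and in 2 every one lay below, where 15.7% and 13.9% of all tested genes did. Ldb2 had 22.7, 28.1 and 22.2 CPM in CTL bridge, against 11.8, 13.7 and 12.99 CPM in CTL distal stump (log2 fold change 0.92, SE 0.10, adjusted p = 0.00111). Aplnr had 27.03, 25.8 and 29.2 CPM in CTL bridge, against 11.7, 11.8 and 16.9 CPM in CTL distal stump, a 2.03-fold difference (log2 fold change 1.02, SE 0.21, adjusted p = 0.0158). Clec14a had 17.1, 16.1 and 15.3 CPM in CTL bridge, against 7.35, 8.66 and 9.28 CPM in CTL distal stump (log2 fold change 0.94, SE 0.16, adjusted p = 0.00672). Emcn, a sialomucin of capillaries and veins, had 43.7, 36.6 and 40.8 CPM in CTL bridge, against 29.0, 26.8 and 30.5 CPM in CTL distal stump, with no overlap (log2 fold change 0.48, SE 0.077, adjusted p = 0.00548). On the log2 scale Ecscr also rose by 0.43, Egfl7 by 0.41, Apln by 0.83, Erg by 0.53 and Kdr by 0.60. Selp was the 1 member called lower in the CTL bridge, with 4.66, 5.14 and 7.09 CPM there, against 11.7, 13.9 and 12.9 CPM in CTL distal stump (log2 fold change −1.18, SE 0.32, adjusted p = 0.0455). Sele also had every CTL bridge library below every CTL distal stump library, with a log2 fold change of −0.62, and was not called. In Nf1 KO nerves Selp had 14.1, 7.72 and 5.70 CPM in Nf1 KO bridge, against 11.7, 6.92 and 6.88 CPM in Nf1 KO distal stump, with overlap.

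Of the 9 members called higher in the CTL bridge, 8 were among the 21 called in Nf1 KO nerves: Apln, Aplnr, Clec14a, Egfl7, Emcn, Erg, Kdr and Ldb2. The exception was Ecscr, at 44.6, 43.2 and 45.9 CPM in Nf1 KO bridge, against 39.4, 33.6 and 36.3 CPM in Nf1 KO distal stump, with an adjusted p of 0.0611. The CTL count moved with single libraries. Leaving out CTL bridge 1 gave 4 calls, CTL bridge 2 gave 5, CTL distal stump 1 gave 3 and CTL distal stump 2 gave 4. The share of all genes called fell in these fits too, from 9.85% to 3.48%, 5.23%, 3.47% and 4.07%. With both muscle-rich CTL bridge libraries left out, 1 CTL bridge library is left, assumed to vary like the other groups; 2.48% of all genes were then called, and 1 member, Ldb2. The call of Selp was lost in 11 of 20 alternatives, among them each CTL library left out other than CTL bridge 3, and Nf1 KO bridge 2, Nf1 KO distal stump 2 or Nf1 KO distal stump 3 left out. Muscle genes summed to 1386 to 10628 CPM in CTL bridge against 23.2 to 335 CPM in CTL distal stump, and the part of muscle RNA in the region difference of CTL nerves was not tested.

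Genes of other cells differed between regions too, and their part in the region differences of the members was not tested. In Nf1 KO nerves, bridge against distal stump, 4 of 8 fibroblast genes were higher, with a list median of 0.63 on the log2 scale and summed levels of 16303 to 16998 against 9715 to 11055 CPM. Of 12 pericyte genes 4 were higher (Rgs5, Kcnj8, Abcc9 and Notch3) and 1 lower (Mcam), and 5 of 10 proliferation genes were higher. In the same nerves 5 of 8 Schwann cell genes, 5 of 8 adipocyte genes and 3 of 8 macrophage genes were lower. In CTL nerves 5 of 8 fibroblast genes were higher, with a median of 0.54 and summed levels of 15138 to 15611 CPM in the bridge against 7931 to 9616 CPM in the distal stump. There 5 of 12 pericyte genes were higher and 1 lower, and 3 of 8 Schwann cell genes and 3 of 8 macrophage genes were lower.

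**Figure D4:**
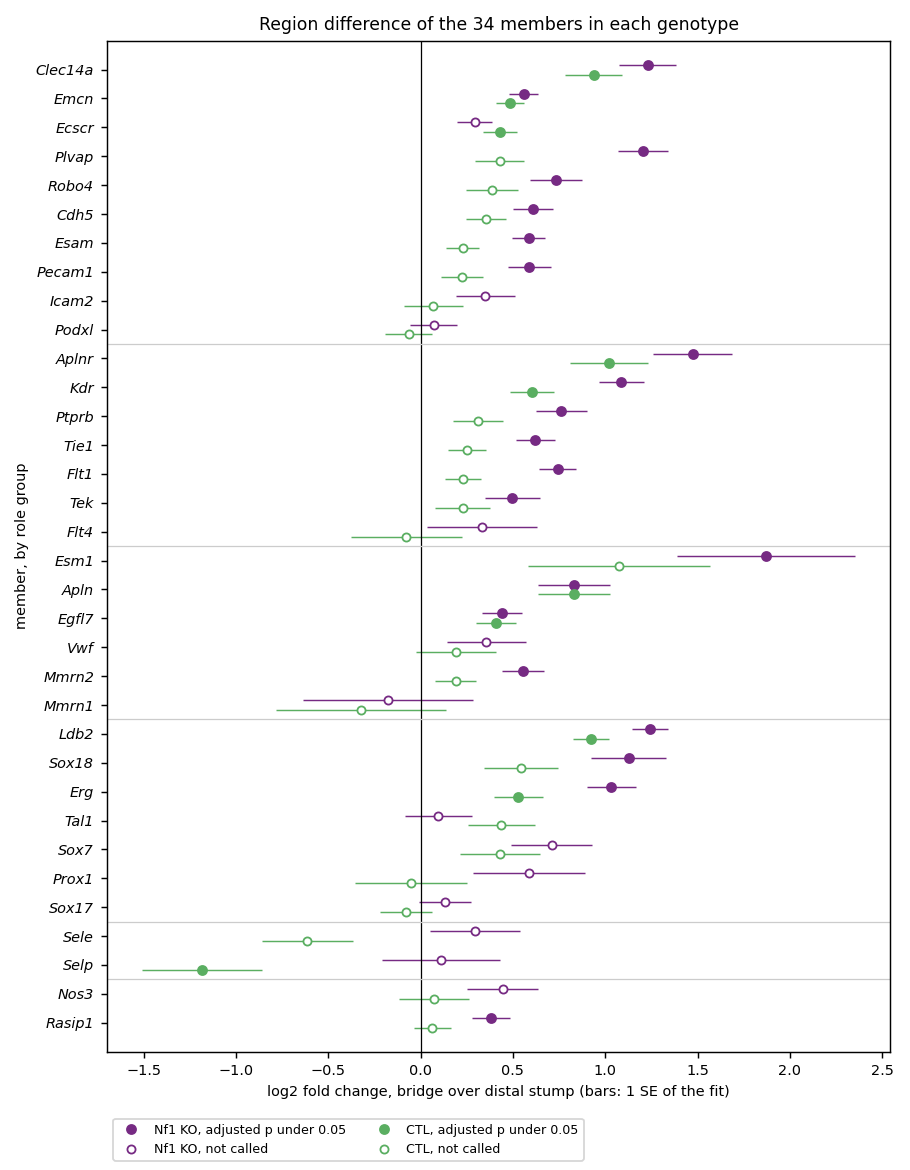
Log2 fold change of bridge over distal stump for each member in Nf1 KO (purple) and CTL (green), with bars of 1 standard error of the fit and filled points where the adjusted p was under 0.05; members are grouped by role. In 33 members the Nf1 KO point lies right of 0, Mmrn1 being the exception, and Selp and Sele lie left of 0 in CTL.

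Genes of vessels outside the list moved in both directions. Of 26 other endothelial genes 2 rose and 5 fell in Nf1 KO distal stump, with a median of −0.20 on the log2 scale. In Nf1 KO bridge 3 rose and 2 fell, with a median of 0.093. Of all tested genes 8.14% were called in the distal stump and 14.6% in the bridge. Cldn5, the main tight junction protein of barrier endothelium, fell in both regions, with a log2 fold change of −1.10 in the bridge (adjusted p = 0.00103). Procr, a receptor of protein C, fell in both as well, by 0.65 and 0.58 on the log2 scale in the bridge and distal stump. Cd93 and Adgrf5 fell in the distal stump, by 0.31 and 0.50. Tm4sf1 and Ets1 rose in both regions. Eng, a co-receptor for BMP ligands, had 28.7, 24.4 and 24.0 CPM in Nf1 KO bridge, against 18.6, 19.1 and 20.9 CPM in CTL bridge, a rise of 0.40. It had 16.1, 13.7 and 14.1 CPM in Nf1 KO distal stump, against 18.3, 19.8 and 18.6 CPM in CTL distal stump, a fall of 0.37. Cd34, the most abundant of the list and also made by fibroblasts, was not called in either region.

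Of 12 barrier and capillary genes none rose by edgeR. In the bridge 4 fell (Slc2a1, Abcb1a, Ocln and Mfsd2a), beside 6.76% of all tested genes called lower. In the distal stump 3 fell (Abcb1a, Car4 and Slc2a1), beside 3.69% of all tested genes. DESeq2 called 6 of the 12 in each region. Slc2a1, the glucose transporter of barrier endothelium and also of perineurium, had 68.3, 77.2 and 72.9 CPM in Nf1 KO bridge, against 115, 130.2 and 130.1 CPM in CTL bridge (log2 fold change −0.78, SE 0.12, adjusted p = 0.00234). Mfsd2a, a lipid transporter that keeps barrier vessels tight, had 8.94, 10.1 and 9.25 CPM in Nf1 KO bridge, against 19.4, 23.8 and 17.6 CPM in CTL bridge (log2 fold change −1.10, SE 0.26, adjusted p = 0.0193). Abcb1a, an efflux pump, fell by 0.59 and 0.64 on the log2 scale in the bridge and distal stump. The median of the list was −0.40 in the bridge and −0.36 in the distal stump.

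Of 9 arterial genes 4 were called in the bridge, where Efnb2, Unc5b and Fbln5 rose and Bmx fell, and 2 in the distal stump, where Efnb2 rose and Bmx fell. These counts stand beside 14.6% of all tested genes called in the bridge and 8.14% in the distal stump. Of 8 venous and post-capillary genes, Lrg1 rose in the bridge and Nr2f2 fell in the distal stump. Of 11 further lymphatic genes none rose; Fxyd6 and Nrp2 fell in the bridge and Nrp2 in the distal stump, and Fxyd6 is also made outside vessels. Ligands showed a fall of Slit2 in both regions, by 0.29 in the bridge and 0.90 in the distal stump, while Angpt1 rose in the bridge and Vegfd fell in the distal stump, out of 9 tested. Vegfa had 31.9, 22.7 and 25.5 CPM in Nf1 KO distal stump, against 15.5, 22.0 and 31.0 CPM in CTL distal stump, with overlap, and was not called in either region. Of 12 genes of pericytes and vessel muscle, 0 were called in either genotype comparison by edgeR or by DESeq2 (medians −0.027 in the bridge and −0.072 in the distal stump). At an unadjusted edgeR p under 0.05 there were 0 in the bridge and 1 in the distal stump. Rgs5, a pericyte marker, had 88.2, 75.4 and 73.6 CPM in Nf1 KO distal stump, against 80.0, 78.2 and 93.1 CPM in CTL distal stump, with overlapping groups. Pdgfrb, the PDGF receptor of pericytes, had 37.2, 34.5 and 35.9 CPM in Nf1 KO distal stump, against 37.5, 38.6 and 41.2 CPM in CTL distal stump, with Nf1 KO libraries just below CTL (log2 fold change −0.13, adjusted p = 0.261).

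Markers of other cells moved beside the vessel genes, and their part in the results was not tested. In the distal stump, Nf1 KO against CTL, the summed levels were 9715 to 11055 against 7931 to 9616 CPM for 8 fibroblast genes, with Col1a1 and Lum higher and Clec3b lower. They were 3745 to 4532 against 5433 to 6281 CPM for 8 Schwann cell genes, 3 of them lower, Prx among these. They were 2363 to 2735 against 1934 to 2620 CPM for 8 macrophage genes (Adgre1 higher), 847 to 1035 against 561 to 806 CPM for 5 haematopoietic genes, 941 to 1245 against 922 to 1456 CPM for 8 adipocyte genes and 346 to 370 against 265 to 328 CPM for 10 proliferation genes (Ccnb2 and Kif11 higher). Blood markers summed to 785 to 1600 against 927 to 3304 CPM for 7 erythroid genes. For 10 platelet genes, 9 of them tested, the sums were 60.0 to 98.0 against 63.7 to 78.9 CPM. Neutrophil and mast cell genes summed to 248 to 579 against 182 to 288 CPM and 53.5 to 104 against 82.1 to 122 CPM. None of these 4 lists had a gene called by edgeR or DESeq2 in the distal stump, and at an unadjusted edgeR p under 0.05 there were 2 erythroid and 1 mast cell gene. In the bridge, Nf1 KO against CTL, all 10 proliferation genes were higher, 7 of 8 adipocyte genes and 4 of 8 Schwann cell genes were lower, and the summed erythroid level was 1042 to 1317 against 1666 to 4605 CPM. There Ptprc and Laptm5 of the haematopoietic list, Itgam of the macrophage list and Col1a1 of the fibroblast list were higher, and Dcn and Clec3b lower. In the bridge edgeR called 0 erythroid, mast cell, neutrophil and platelet genes, while DESeq2 called 5, 4, 1 and 1, and 5, 4, 2 and 1 had an unadjusted edgeR p under 0.05. In the distal stump edgeR called 0 haematopoietic and 0 adipocyte genes, DESeq2 2 and 0, and 2 and 1 had an unadjusted edgeR p under 0.05. Skeletal muscle and Y-linked genes gave 0 calls in both regions by either tool, with 1 Y-linked gene at an unadjusted edgeR p under 0.05 in the distal stump. Abundant genes of these lists in the distal stump, Nf1 KO against CTL, stood at 3863 to 5284 against 2652 to 4209 CPM for Col3a1 of fibroblasts and 823 to 989 against 707 to 1005 CPM for C1qb of macrophages. It was 229 to 343 against 135 to 220.2 CPM for Cd52 of leukocytes, 305 to 642 against 337 to 1275 CPM for Hbb-bs of red cells, 45.0 to 79.9 against 48.9 to 60.5 CPM for Pf4 of platelets and 267 to 314 against 252 to 278 CPM for Mcam of vessel walls. Retnlg of neutrophils had 187 to 196 against 115 to 153 CPM, Cma1 of mast cells 16.2 to 30.8 against 28.4 to 40.3 CPM, Cfd of adipocytes 521 to 761 against 495 to 837 CPM, Acta1 of muscle 1.59 to 598 against 1.68 to 123 CPM and Top2a of dividing cells 103 to 109.7 against 75.9 to 97.1 CPM. Among these markers, Gp6 was at 0 counts in 5 libraries and Ly6g in 6.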

How the data were processed

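RNA of 12 pooled nerve samples was sequenced after ribosomal depletion with a directional kit, per the labels' protocols. The submitters' processing notes name mm10 as the genome and, as tools, cutadapt 1.2.1, CASAVA 1.8.2 and a DESeq2 of no stated version. The aligner, the counter and any use of strand are not given in sources used here. Estimated counts per gene were made by the authors and deposited as whole numbers, and were tested as deposited. Small values are rare in very short genes, a class with no member here.

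Counts were tested with edgeR 4.0.16 in R 4.3.3: filterByExpr by group, TMM factors, 1 model with 4 group coefficients, quasi-likelihood F test, Benjamini-Hochberg adjustment over 19189 genes, called under 0.05. The SE is the log2 fold change divided by the root of F. CPM use TMM-scaled library sizes, and 3 counts correspond to 0.0771 to 0.154 CPM. Coordinates and exon lengths come from GENCODE M21 (GRCm38, as mm10), promoters from RefSeq. The procedure was tested on simulated data.

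DESeq2 1.42.0, other size factors and filters, a replicate block, a Y-linked covariate and libraries left out served as alternatives, 20 in all. No 2 libraries were identical. Members called between genotypes, and the 2 most counted uncalled members of each role, are given by library. From other lists, up to 4 called genes of smallest p are named, with others added after their values were seen (Vegfa, Rgs5, Pdgfrb, S100a8). The members and lists were chosen with earlier results of these data known, including the fall of endothelial markers in the distal stump, so none is independent support. Values of a few single marker genes are not reported here.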

Additional observations from a re-analysis of the deposited data

How the results depend on the processing

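With 3 pooled libraries a group, 0 member calls reversed direction in any of the 20 alternatives. Of 12 members lower in the distal stump, the count was 1 with only the groups compared, 5 without the muscle-rich CTL bridge libraries (which leaves 1 CTL bridge library, so fewer samples) and 2 with the Y-linked covariate; leaving out 1 library gave 1 to 12. In the bridge, 1 member was called higher and 1 lower, beside 14.6% of all genes called. The counts were 2 higher and 3 lower under DESeq2 (19.3%). They were 2 higher and 1 lower under the stricter filter of at least 1 CPM in 3 libraries (17.6%). With only the groups compared they were 2 higher and 2 lower (12.5%). Leaving out 1 library gave 0 to 2 higher and 1 to 2 lower (8.2% to 15%). Without the muscle-rich libraries the member median was 0.040 on the log2 scale, beside −0.052 in the full fit. Of 9 members called higher in the CTL bridge than in the CTL distal stump, leaving out 1 library gave 3 to 10, beside 3.47% to 10.5% of all genes. Without the muscle-rich libraries the member median there was 0.17 on the log2 scale, beside 0.28 in the full fit. The 1 member called lower there, Selp, was lost with no filter (0) and with the replicate block (0), and leaving out 1 library gave 0 to 1. For the interaction, DESeq2 called 1 of the 29 members it gave an adjusted p, beside 3.17% of all such genes. In Nf1 KO nerves the count of members higher in the bridge stayed between 17 and 23 throughout, beside 8.08% to 19.5% of all genes called. The share of all genes called moved in these fits as well, and the causes of these changes were not tested. The fit with the replicate number as a block called 9 members lower in the distal stump, beside 6.69% of all genes called. It called 1 higher and 1 lower in the bridge (12.8%) and 19 higher in the Nf1 KO bridge than in its distal stump (12.8%). The correlation of deviations between same-numbered libraries was −0.064 to 0.139, above 0.1 in 1 pair only. Between bridge and distal stump of 1 genotype it was positive in every same-numbered pair, at 0.00682 to 0.0298 in CTL and 0.034 to 0.139 in Nf1 KO. Whether a number marks shared mice is not stated, so the samples were not paired. Any sharing of mice between regions was thus left out of the region comparisons. The replicate block also ties numbers across genotypes, so it does not test pairing of regions within a genotype. Over all genes the count called between genotypes was 2795 in the bridge and 1562 in the distal stump by edgeR, and 3433 and 2238 by DESeq2. Members with few counts, such as Prox1 and Flt4, had standard errors of 0.30 on the log2 scale, which limits the differences that could be called in them.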
